A study of Mus musculus with 15 samples.

Results

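The genes described here are 9 members of the MHC class II presentation pathway: Cd74, H2-Aa, H2-Ab1, H2-Eb1, H2-DMa, H2-DMb1, H2-DMb2, Ctss and Ciita. They were chosen by name (in capitals in the table, as CD74, H2-AA, H2-AB1, H2-EB1, H2-DMA, H2-DMB1, H2-DMB2, CTSS and CIITA), and all 9 were found among its 32434 entries. RNA had been sequenced from 5 mouse myeloma cell lines, IL6Myc-2, IL6Myc-1, IL6Myc-3, IL6Myc-4 and IL6Myc-5, all of genotype IL6Myc and derived from IL6Myc mice, an immunocompetent model of the plasma cell cancer multiple myeloma. Each line had 3 technical replicate libraries (15 in all) of 19068543 to 41165599 estimated counts, and no normal plasma cells were part of the panel. No treatment, mouse strain, sex or age is given in the labels. Each line is thus a single biological unit, and every p-value below measures the spread between technical libraries.

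MHC class II molecules display peptides from endosomes to CD4+ T cells. Their alpha and beta chains assemble in the endoplasmic reticulum around the invariant chain, the product of Cd74, which blocks the peptide groove and carries the complex to endosomes. There cathepsin S, encoded by Ctss, trims the invariant chain, and the DM heterodimer, made of the products of H2-DMa and an H2-DMb gene, exchanges the remaining fragment for a peptide. Transcription of most of these genes depends on CIITA, a co-activator that is recruited to the X and Y boxes of class II promoters. B cells carry class II molecules, and their differentiation into plasma cells is known to silence Ciita through the repressor encoded by Prdm1.

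The promoters of the class II genes are shown because they carry the elements through which CIITA is known to act. RefSeq promoter windows of the GRCm38.p6 assembly, running from 250 bases before to 50 bases after a gene's start, were matched by symbol for 6 of the 9 members. No window was matched for Cd74, H2-Ab1 and Ciita, so their promoters were not searched. The submitters name another build, GRCm39, so these coordinates belong to GRCm38.p6 alone. The 150 bases before the start are printed below, 5′ to 3′ on the strand of the gene, with X cores (ACNGATG) and Y cores (GATTGG on the gene's strand, CCAATC for the other strand) in capitals.
H2-Eb1, chr17:34305717-34305866, plus strand: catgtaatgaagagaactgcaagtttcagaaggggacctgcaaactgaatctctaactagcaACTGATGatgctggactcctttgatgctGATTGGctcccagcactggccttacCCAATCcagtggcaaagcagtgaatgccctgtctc
H2-DMb1, chr17:34153041-34153190, plus strand: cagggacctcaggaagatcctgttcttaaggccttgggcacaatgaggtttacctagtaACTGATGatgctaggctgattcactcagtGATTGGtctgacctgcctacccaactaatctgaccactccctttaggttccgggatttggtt
H2-DMb2, chr17:34145099-34145248, plus strand: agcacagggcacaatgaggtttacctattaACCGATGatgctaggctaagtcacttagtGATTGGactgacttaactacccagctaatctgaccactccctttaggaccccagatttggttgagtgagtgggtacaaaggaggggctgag
H2-Aa, chr17:34287824-34287973, minus strand: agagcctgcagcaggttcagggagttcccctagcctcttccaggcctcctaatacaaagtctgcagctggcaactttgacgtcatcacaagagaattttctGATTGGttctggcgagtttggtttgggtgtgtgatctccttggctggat

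In H2-Eb1 the X core ACTGATG begins 88 bases before the start and the Y core 60 bases before it, with 21 bases between them. H2-DMb1 holds the same X core 91 bases before its start and a Y core at 62, and H2-DMb2 holds ACCGATG at 120 and a Y core at 91, each with 22 bases between. The H2-Aa window held a Y core 49 bases before the start and an X core on the opposite strand only, outside the printed stretch. Both cores were searched on both strands, and neither motif overlaps the other. Of all 32851 promoter windows in the table, 9.85% held an X core, 16.1% a Y core and 0.0609% (20 windows of 18 genes) an X core followed by a Y core on the same strand with 10 to 30 bases between. Like H2-Aa, the other matched members held no such pair, and they are not printed: both H2-DMa windows lacked an X core, and 1 of them held a Y core, while the Ctss window held an X core and no Y core. These matches describe letters and not bound sites. Only the exact letters given above were searched, so an X or Y box spelled otherwise would be missed. A window without a core or pair, such as that of H2-Aa, is therefore not shown to lack these boxes. H2-DMb1 and H2-DMb2, whose cores have the same spacing, also share 1185 of 1422 aligned transcript positions (83.3%), so the authors' counting could have split reads between them.

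The invariant chain gene Cd74 had the highest level per kb of transcript among the chain, invariant chain and DM genes in each line. It was at 2681, 2762 and 2644 CPM (estimated counts scaled to a common library size) in the 3 IL6Myc-2 libraries. Elsewhere it was at 174, 169 and 182 CPM in the IL6Myc-5 libraries, 162, 166 and 171 CPM in those of IL6Myc-4, 96.5, 97.8 and 101 CPM in those of IL6Myc-1 and 68.3, 63.9 and 65.9 CPM in those of IL6Myc-3. The IL6Myc-2 libraries stood far above the 12 others, and among those 12 the libraries of IL6Myc-4 and IL6Myc-5 overlapped, above IL6Myc-1 and IL6Myc-3, which did not overlap with them or with each other. The line means were 2696 ± 60 CPM in IL6Myc-2 and 66.0 to 175 CPM in the 4 other lines (SD, n = 3 each).

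The classical chain genes H2-Ab1 and H2-Eb1 were likewise highest in IL6Myc-2, at levels per kb far below that of Cd74. H2-Ab1, the beta chain of the I-A molecule, was at 18.02, 16.4 and 15.2 CPM in IL6Myc-2 and was listed at 0 in each of the 12 libraries of the other lines. H2-Eb1, the beta chain of the I-E molecule, was at 14.3, 13.4 and 12.9 CPM in IL6Myc-2. In the other lines H2-Eb1 was at 0.912, 1.14 and 0.751 CPM in IL6Myc-1, at 0.291, 0.368 and 0.617 CPM in IL6Myc-5, at 0.476, 0.366 and 0.184 CPM in IL6Myc-4 and at 0.212, 0.149 and 0.126 CPM in IL6Myc-3. Every IL6Myc-2 library was above every other library for both genes, and the IL6Myc-1 libraries were above the remaining 9 for H2-Eb1.

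H2-Aa, the alpha chain that pairs with the H2-Ab1 product, was close to the limit of detection. Its 3 IL6Myc-2 libraries held 21.6, 22.6 and 9.004 estimated counts, or 1.03, 1.15 and 0.552 CPM, and the 12 others held 0 to 0.172 CPM with a median of 0.0455 CPM. All IL6Myc-2 libraries were thus above all others. H2-Aa did not reach the level needed for the main test (at least 1 CPM, on unscaled library totals, in 3 libraries). In a fit with no filter on low counts (21140 genes, of which 8.32% were called higher in IL6Myc-2) it was higher in IL6Myc-2 than the mean of the other 4 lines, with a log2 difference of 4.08 ± 0.53 SE and an edgeR adjusted p of 5.42e-09.

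A listed 0 in this table may be a failed estimate and does not show that the transcript is missing. H2 genes also differ in sequence between mouse strains, and whether the lines' H2 alleles match the annotation was not tested. Of the 11773 tested genes, 2 were at 10 CPM or more in each library of IL6Myc-2 and listed at 0 in all 12 other libraries, and for each of the other 4 lines the number was 0. The 2 genes are H2-Ab1 and Egln1, a widely expressed oxygen sensor, which was at 24.8, 26.2 and 25.2 CPM in IL6Myc-2. Jak1, a kinase that most cells use for cytokine signalling, was also near 0, at 0 to 0.641 CPM in the 15 libraries.

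**Figure D1:**
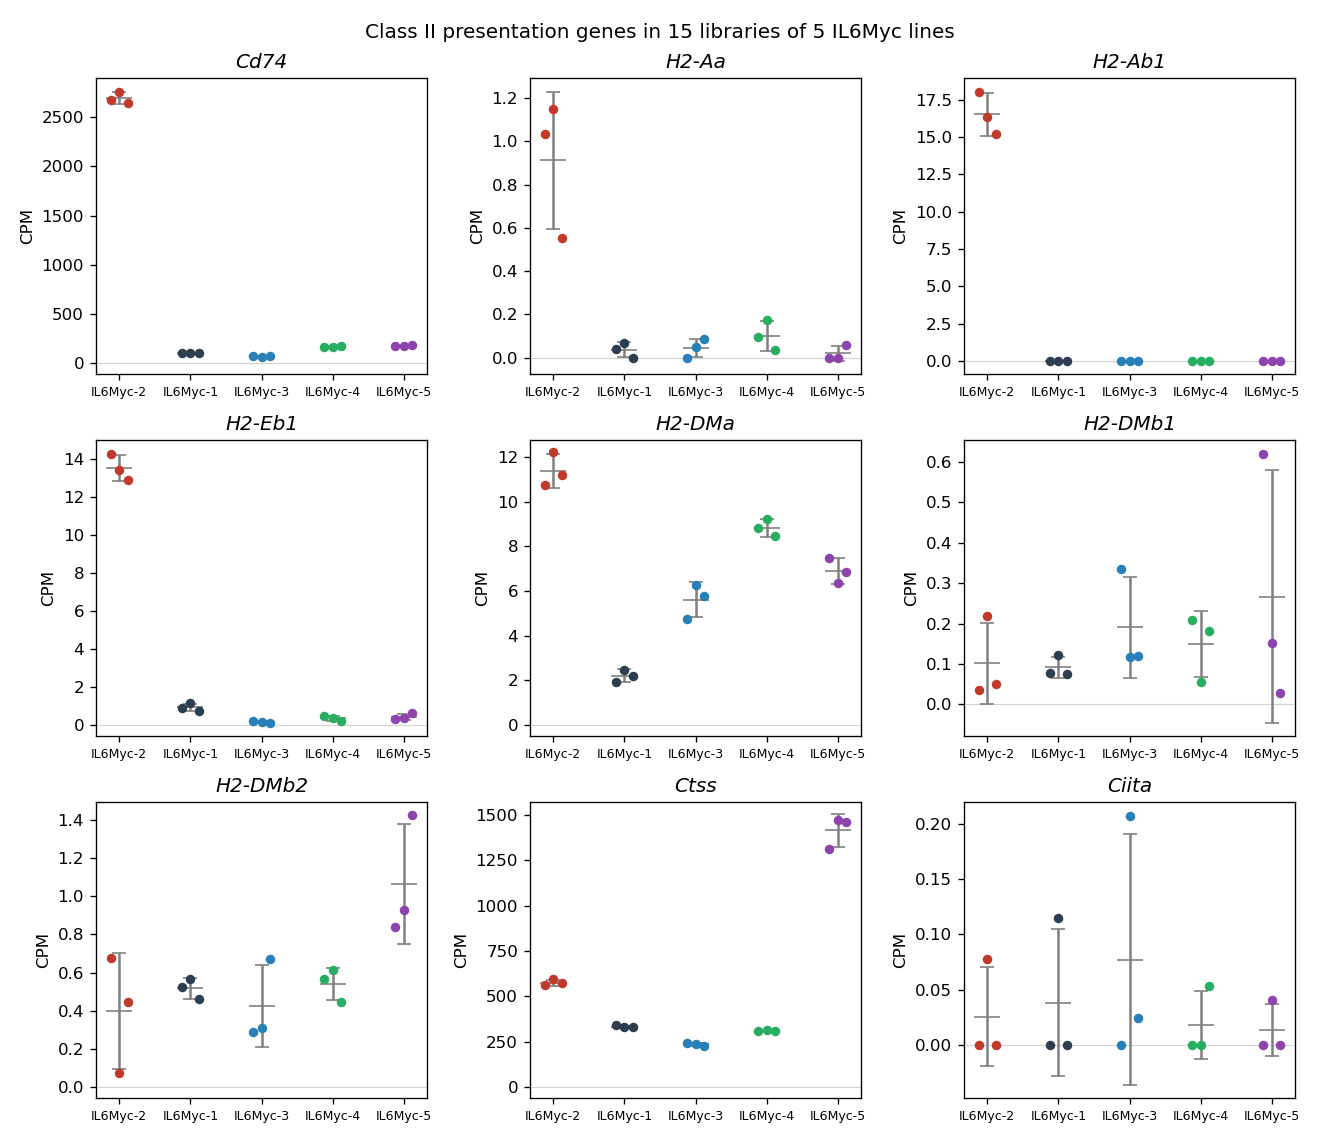
Level in CPM (linear axis, a separate scale for each gene) of the 9 members in the 15 libraries, with IL6Myc-2 at the left. Coloured points are libraries and grey marks are the mean ± SD of 3 technical replicates; Cd74, H2-Aa, H2-Ab1 and H2-Eb1 were highest in all 3 IL6Myc-2 libraries, Ctss in all 3 IL6Myc-5 libraries, and Ciita did not exceed 0.207 CPM.

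Of the peptide exchange genes, H2-DMa was highest in IL6Myc-2 by a narrower margin than the chain genes, and the DMb genes were not highest there. H2-DMa, the alpha chain of DM, was at 10.8, 12.2 and 11.2 CPM in IL6Myc-2, at 8.80, 9.22 and 8.45 CPM in IL6Myc-4 and at 7.48, 6.35 and 6.85 CPM in IL6Myc-5. In IL6Myc-3 it was at 4.76, 6.29 and 5.80 CPM, and in IL6Myc-1 at 1.91, 2.48 and 2.22 CPM. The libraries of IL6Myc-2 were the highest and those of IL6Myc-1 the lowest, and the mean of IL6Myc-2 was 1.29-fold above that of IL6Myc-4. H2-DMb2, a DM beta chain, ranged over 0.0721 to 0.678 CPM in IL6Myc-2 libraries, against 0.290 to 1.42 CPM in the 12 others. It was highest in IL6Myc-5, at 0.839, 0.930 and 1.42 CPM. H2-DMb1, the other beta chain gene, ranged over 0.0352 to 0.218 CPM in IL6Myc-2 libraries, against 0.0275 to 0.620 CPM in the 12 others, so the lines overlapped.

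Neither DMb gene reached the main test. Without the filter on low counts, H2-DMb2 was higher in IL6Myc-5 than the mean of the other lines (log2 difference 1.20 ± 0.34 SE, edgeR adjusted p = 0.00391, against 4.65% of genes called higher there). For the sum of both DMb genes, which does not depend on how reads were split, the mean was 1.33 ± 0.22 CPM in IL6Myc-5 and between 0.501 ± 0.21 and 0.689 ± 0.075 CPM in the other lines (SD, n = 3 each). In IL6Myc-2, on totals of 22.9 and 5.86 estimated counts over its 3 libraries, the difference from the other lines' mean was -0.67 ± 0.42 for H2-DMb2 (edgeR adjusted p = 0.232) and -0.63 ± 0.78 for H2-DMb1 (adjusted p = 0.613). Against IL6Myc-5 alone, H2-DMb2 was lower in IL6Myc-2 (-1.49 ± 0.49, edgeR adjusted p = 0.0127, where 9.60% of genes were called in this fit).

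Ctss, the invariant chain protease, had its own order. It was at 1310, 1471 and 1464 CPM in IL6Myc-5, at 562, 594 and 572 CPM in IL6Myc-2, at 339, 329.7 and 329 CPM in IL6Myc-1, at 311, 313 and 310.0 CPM in IL6Myc-4 and at 243, 236 and 226 CPM in IL6Myc-3. The lines did not overlap, with IL6Myc-5 on top and IL6Myc-2 next.

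Ciita, the co-activator of the pathway, was at or near 0 throughout. It was at 0, 0.0773 and 0 CPM in IL6Myc-2. In the other lines it was listed at 0 in 7 of 12 libraries and reached at most 0.207 CPM, in IL6Myc-3, or 5.58 estimated counts. The libraries of IL6Myc-2 lay within the range of the others, and in the fit with no filter the log2 difference of IL6Myc-2 was 0.24 ± 1.11 SE (edgeR adjusted p = 1). A count of 0 over the 3 IL6Myc-2 libraries would allow up to 0.0527 CPM, counting error only. The Ciita levels therefore set no order of the lines.

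Per kb of transcript (the coding transcript that GENCODE numbers first for each gene), the members spanned several orders of magnitude within a line. In IL6Myc-2 the level was 2202 CPM per kb for Cd74, 425 for Ctss, 13.6 for H2-Ab1, 11.5 for H2-Eb1, 6.87 for H2-DMa, 0.808 for H2-Aa, 0.280 for H2-DMb2, 0.0723 for H2-DMb1 and 0.00429 for Ciita. Cd74 thus exceeded Ctss in IL6Myc-2, by 5.18 ± 0.088-fold, and was below it in each other line, at 0.592 ± 0.018 of Ctss in IL6Myc-4, 0.327 ± 0.012 in IL6Myc-1, 0.311 ± 0.011 in IL6Myc-3 and 0.137 ± 0.010 in IL6Myc-5 (per-kb ratio, mean ± SD of 3 libraries). The invariant chain gene exceeded the chain genes: Cd74 was 162 ± 13 times H2-Ab1 and 191 ± 9.8 times H2-Eb1 in IL6Myc-2, and 104 ± 23 to 551 ± 300 times H2-Eb1 in the other lines. H2-Ab1 and H2-Eb1 were close to each other in IL6Myc-2 (ratio 1.18 ± 0.042), whereas H2-Ab1 was 18.4 ± 6.4 times its partner H2-Aa. These ratios depend on the transcript taken. With the longest coding transcript of each gene, the IL6Myc-2 means gave 1.68 for H2-Ab1 over H2-Eb1. Cd74 was then 236 times H2-Eb1, 140 times H2-Ab1 and 4.50 times Ctss. If the deposited estimates had already been corrected for transcript length, these per-kb values would carry that correction a second time.

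**Figure D2:**
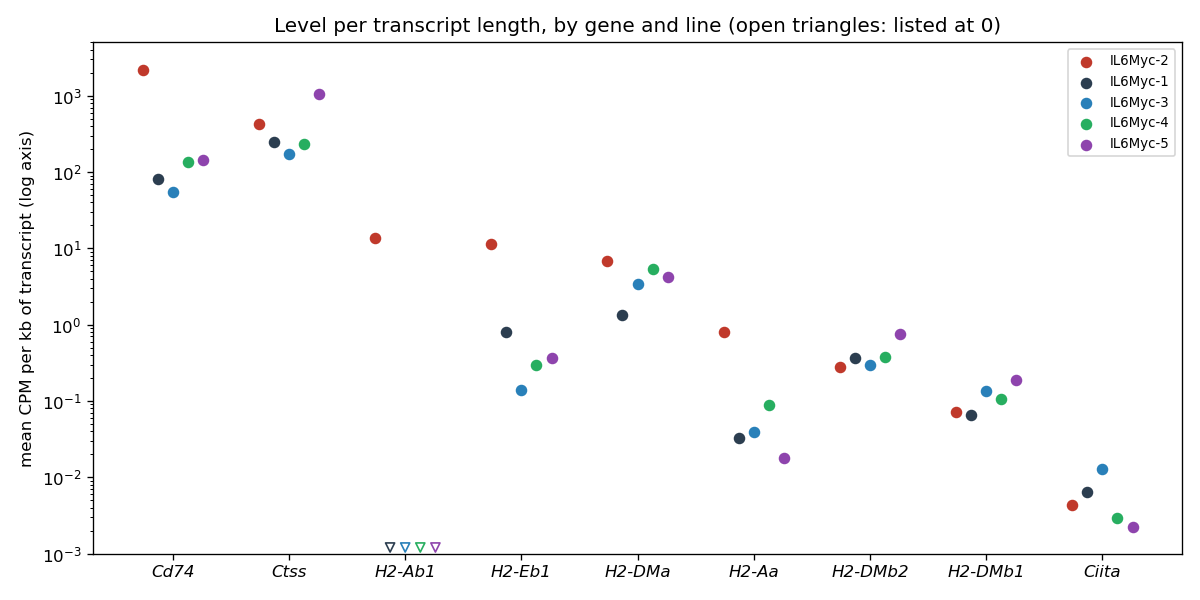
Mean level of each member in CPM per kb of transcript (log axis) in the 5 lines, with IL6Myc-2 first. Each point is the mean of 3 libraries and open triangles at the lower edge stand for a gene listed at 0; Cd74 lies above Ctss in IL6Myc-2 and below it in the 4 other lines, and Ciita is the lowest of the genes with a level above 0 in each line.

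In edgeR's quasi-likelihood test over 11773 genes, every line was then set against the other 4 lines' mean. A gene was called when its Benjamini-Hochberg adjusted p was under 0.05 and its log2 difference was 1 or more in size. Of the 9 members, 5 passed the filter on low counts: Cd74, H2-Ab1, H2-Eb1, H2-DMa and Ctss. H2-Ab1 and H2-Eb1 passed it through the IL6Myc-2 libraries, so their differences follow in part from the filter and the counts below are a description. In IL6Myc-2, 4 of the 5 were called higher, where 8.60% of all tested genes were, and 0 lower, where 4.08% were. The log2 difference was 4.52 ± 0.03 SE for Cd74 (adjusted p = 1.41e-23), 5.12 ± 0.16 for H2-Eb1 (adjusted p = 4.28e-14) and 1.12 ± 0.09 for H2-DMa (adjusted p = 1.62e-08). H2-Ab1 was called too (adjusted p = 7.15e-10), but its fitted difference depends on the prior count, since it was listed at 0 elsewhere. Ctss passed the p threshold with a difference of 0.42 ± 0.03, below the size threshold.

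Against each of the other 4 lines taken singly, Cd74, H2-Ab1 and H2-Eb1 were called higher in IL6Myc-2 every time. H2-DMa was not: IL6Myc-1 was lower (IL6Myc-1 minus IL6Myc-2, -2.38 ± 0.13), and IL6Myc-2 was above the others by 1.01 ± 0.12 against IL6Myc-3, 0.72 ± 0.12 against IL6Myc-5 and 0.36 ± 0.12 against IL6Myc-4. Ctss was higher in IL6Myc-2 than in IL6Myc-3 (1.29 ± 0.04, edgeR adjusted p = 3.21e-13) and lower than in IL6Myc-5 (-1.30 ± 0.04, adjusted p = 3.1e-13).

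The other lines each had their own called members. In IL6Myc-5, Ctss was higher by 2.04 ± 0.03 (edgeR adjusted p = 1.53e-17, where 4.80% of genes were called higher) and was called against each line singly. In IL6Myc-1, H2-DMa was lower by -1.86 ± 0.12 (edgeR adjusted p = 4.49e-10, where 8.11% of genes were called lower) and likewise lower than in each line singly. In IL6Myc-3, 3 of 5 members were lower (3.05% of genes): Cd74 by -2.17 ± 0.04, H2-Eb1 by -2.85 ± 0.31 and Ctss by -1.20 ± 0.04. In IL6Myc-4, H2-Eb1 was lower by -1.51 ± 0.28 (4.37% of genes), and in IL6Myc-5 by -1.10 ± 0.27 (3.19% of genes). Neither of these 2 calls held with IL6Myc-2 set aside (-0.25 ± 0.31 in IL6Myc-4, edgeR adjusted p = 0.529, and 0.19 ± 0.29 in IL6Myc-5, adjusted p = 0.598). These means over 4 lines include IL6Myc-2 itself: Cd74 was called lower in IL6Myc-1 (-1.45 ± 0.03) although its mean there, 98.4 CPM, was above the 66.0 CPM of IL6Myc-3.

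With IL6Myc-2 set aside, each of the 4 remaining lines was compared with the mean of the other 3. Cd74 was then lower in IL6Myc-3 (-1.10 ± 0.03, edgeR adjusted p = 1.99e-13, where 2.58% of genes were called lower) and was not called in IL6Myc-1 (-0.34 ± 0.03). H2-Eb1 was higher in IL6Myc-1 (1.73 ± 0.24, edgeR adjusted p = 9.09e-06, where 4.37% of genes were called higher) and lower in IL6Myc-3 (-1.67 ± 0.34, adjusted p = 0.00063). H2-DMa was lower in IL6Myc-1 (-1.68 ± 0.12, where 7.60% of genes were called lower) and just past the size threshold in IL6Myc-4 (1.01 ± 0.10, where 6.22% were called higher), a call that was lost when any of 4 libraries was left out. Ctss was higher in IL6Myc-5 (2.29 ± 0.03, where 5.56% were called higher) and lower in IL6Myc-3 (-1.17 ± 0.04). IL6Myc-1 thus had the second highest H2-Eb1 level beside the lowest H2-DMa level.

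Over all lines, each of the 5 tested members differed in the F-test among the 5 lines, where 32.2% of tested genes did, and 4 of them (Cd74, H2-Eb1, H2-DMa and Ctss) among the 4 lines without IL6Myc-2, where 25.7% did. Neighbours in the order of levels were often close. Cd74 did not differ beyond the spread of the libraries between IL6Myc-4 and IL6Myc-5 (-0.07 ± 0.04, edgeR adjusted p = 0.135), nor did H2-Eb1 (-0.33 ± 0.36, adjusted p = 0.467). Ctss differed by 0.10 ± 0.04 between IL6Myc-1 and IL6Myc-4 (edgeR adjusted p = 0.0622) and H2-DMa by -0.29 ± 0.12 between IL6Myc-3 and IL6Myc-5 (adjusted p = 0.0534).

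In the 10 pairs of lines, the tested members called were compared with the share of all tested genes called in the same pair. IL6Myc-2 differed from IL6Myc-3 in 5 of 5 members (background 14.0%), from IL6Myc-1 in 4 (19.0%), from IL6Myc-5 in 4 (12.2%) and from IL6Myc-4 in 3 (14.0%). Of the pairs without IL6Myc-2, IL6Myc-1 differed from IL6Myc-5 in 3 members (14.6%), from IL6Myc-4 in 2 (15.7%) and from IL6Myc-3 in 2 (11.4%). IL6Myc-3 differed from IL6Myc-5 in 3 (9.86%) and from IL6Myc-4 in 2 (11.5%). The H2-Eb1 call between IL6Myc-3 and IL6Myc-4 (-1.07, edgeR adjusted p = 0.0437) was lost with DESeq2 (adjusted p = 0.0659), limma (0.168), the replicate block (0.0617), no filter on low counts (0.0651) and in 8 of the 15 fits without 1 library (0.0512 to 0.251 there). That between IL6Myc-1 and IL6Myc-5 fell to 0.91 without IL6Myc-5 replicate 1, and that between IL6Myc-3 and IL6Myc-5 to -0.99 (adjusted p = 0.117) without IL6Myc-5 replicate 3. IL6Myc-4 differed from IL6Myc-5 in Ctss alone of the 5 (11.3%).

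**Figure D3:**
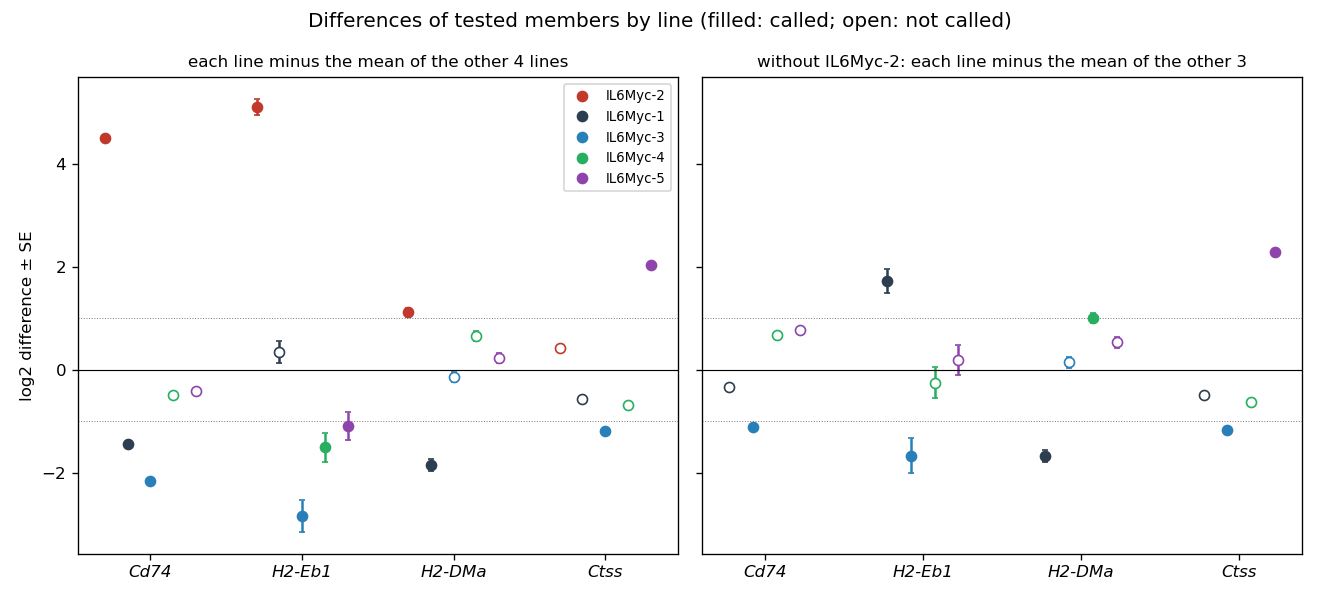
Log2 difference ± SE of 4 tested members in a line, set against the other 4 lines' mean (left) and, with IL6Myc-2 set aside, against the mean of the other 3 (right). Filled points were called, open points were not, and dotted lines mark a difference of 1; Cd74 and H2-Eb1 of IL6Myc-2 stand at 4.52 and 5.12, and at the right the filled points are spread over all 4 remaining lines.

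Companion genes of the pathway came from lists drawn up around CIITA and class II transport, 40 genes in 7 groups, of which 39 were in the table and 29 were tested. In IL6Myc-2, 4 of 29 were called higher (background 8.60%, as above) and 0 lower. Their median log2 difference was 0.22, against -0.01 for all tested genes. Among the 5 lines 10 of 29 were called, a share close to the background of 32.2%.

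Among the regulators of Ciita, 2 of 8 tested genes, Irf1 and Ifngr2, were higher in IL6Myc-2. Irf1, an interferon-induced factor that acts on a Ciita promoter, lay at 105 to 107 CPM in IL6Myc-2, against 34.3 to 65.1 CPM elsewhere (log2 difference 1.13 ± 0.03). Ifngr2, a chain of the interferon gamma receptor, lay at 22.04 to 27.4 CPM in IL6Myc-2, against 6.003 to 16.2 CPM elsewhere (1.32 ± 0.14). For both genes the IL6Myc-2 libraries did not overlap with the others. Bcl6, a germinal centre repressor, was higher in IL6Myc-5, at 10.4 CPM against 4.06 to 7.73 CPM in the rest (1.05 ± 0.09). Prdm1, the repressor of Ciita in plasma cells, and Irf4, a plasma cell factor, were at 167 and 976 CPM in IL6Myc-2, against 172 to 196 and 963 to 1199 CPM in the rest, and neither was called.

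The promoter factors that recruit CIITA were not called in IL6Myc-2 (0 of 7, median log2 difference -0.08). They comprise the RFX complex, which binds the X box, NF-Y, which binds the Y box, and CREB1. Rfx5, the DNA-binding RFX subunit, was at 27.7 CPM in IL6Myc-2, and was higher in IL6Myc-5, at 45.4 ± 0.41 CPM, than in the other lines, at 16.6 to 27.7 CPM (1.12 ± 0.08, edgeR adjusted p = 2.75e-09). Rfxap, Rfxank, Nfya, Nfyb, Nfyc and Creb1 differed by -0.29 to 0.49 in IL6Myc-2.

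Of 7 endosomal processing genes, 1 was higher in IL6Myc-2. Ctsl, a cathepsin that trims the invariant chain in thymic epithelium, lay at 67.1 to 80.5 CPM in IL6Myc-2, against 17.1 to 36.6 CPM elsewhere (1.51 ± 0.05, edgeR adjusted p = 1.66e-13). Ctsb, another cathepsin, was instead higher in IL6Myc-4, at 1900 ± 47 CPM against 369 to 594 CPM in the other lines (2.06 ± 0.03, where 5.28% of genes were called higher). With IL6Myc-2 set aside, Ctsb was also lower in IL6Myc-1 (-1.02 ± 0.03) and IL6Myc-3 (-1.01 ± 0.03). Ctsd, an aspartic cathepsin, was at 883 CPM in IL6Myc-2, against 653 to 746 CPM in the rest, and was not called (0.35 ± 0.03). Ctsl was lower in IL6Myc-1 (-1.04 ± 0.06), a call lost without IL6Myc-1 replicate 1. Marchf1, a ubiquitin ligase that removes class II molecules from the surface, was at 11.6 ± 0.34 CPM in IL6Myc-3, against means of 0.259 to 0.715 CPM in the rest (4.501 ± 0.18, edgeR adjusted p = 3.78e-12, where 4.60% of genes were called higher). Marchf1 passed the filter on low counts through the IL6Myc-3 libraries, so its differences follow in part from the filter and are a description. It was lower in IL6Myc-4 (-2.37 ± 0.33), where it had 20.4 estimated counts over 3 libraries. With IL6Myc-2 set aside it was higher in IL6Myc-3 (4.65% of genes) and lower in IL6Myc-4 (4.23%) and IL6Myc-1. IL6Myc-3 was also the line with the lowest Cd74 and H2-Eb1 levels.

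Cd80, a co-stimulatory ligand for T cells, lay at 17.0 to 19.5 CPM in IL6Myc-2, against 2.48 to 10.6 CPM elsewhere (2.06 ± 0.08, edgeR adjusted p = 1.3e-12), and was lower in IL6Myc-3 (-1.31 ± 0.11) and IL6Myc-5 (-1.28 ± 0.11). With IL6Myc-2 set aside Cd80 was not called in these lines (-0.85 and -0.82) and was higher in IL6Myc-4 (1.58 ± 0.09). Of the proteins that pair with CD74 at the cell surface or bind it, 0 of 4 (Mif, Ddt, Cd44 and Cxcr4) were called in IL6Myc-2. The 4 further class II genes in the table were too low for the main test. Without the filter, H2-Eb2 was higher in IL6Myc-2 (4.0 ± 0.53, edgeR adjusted p = 7.29e-09), at 0.952 CPM against 0 to 0.269 CPM in the other lines. H2-Ob was also higher there, at 0.103 CPM against 0 to 0.0300 CPM (3.76 ± 1.13, edgeR adjusted p = 0.00564). Over the 3 IL6Myc-2 libraries H2-Eb2 had 55.4 estimated counts and H2-Ob only 5.98, close to the limit of detection. H2-Oa was listed at 0 in all 15 libraries and H2-Ea in all but 1.

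**Figure D4:**
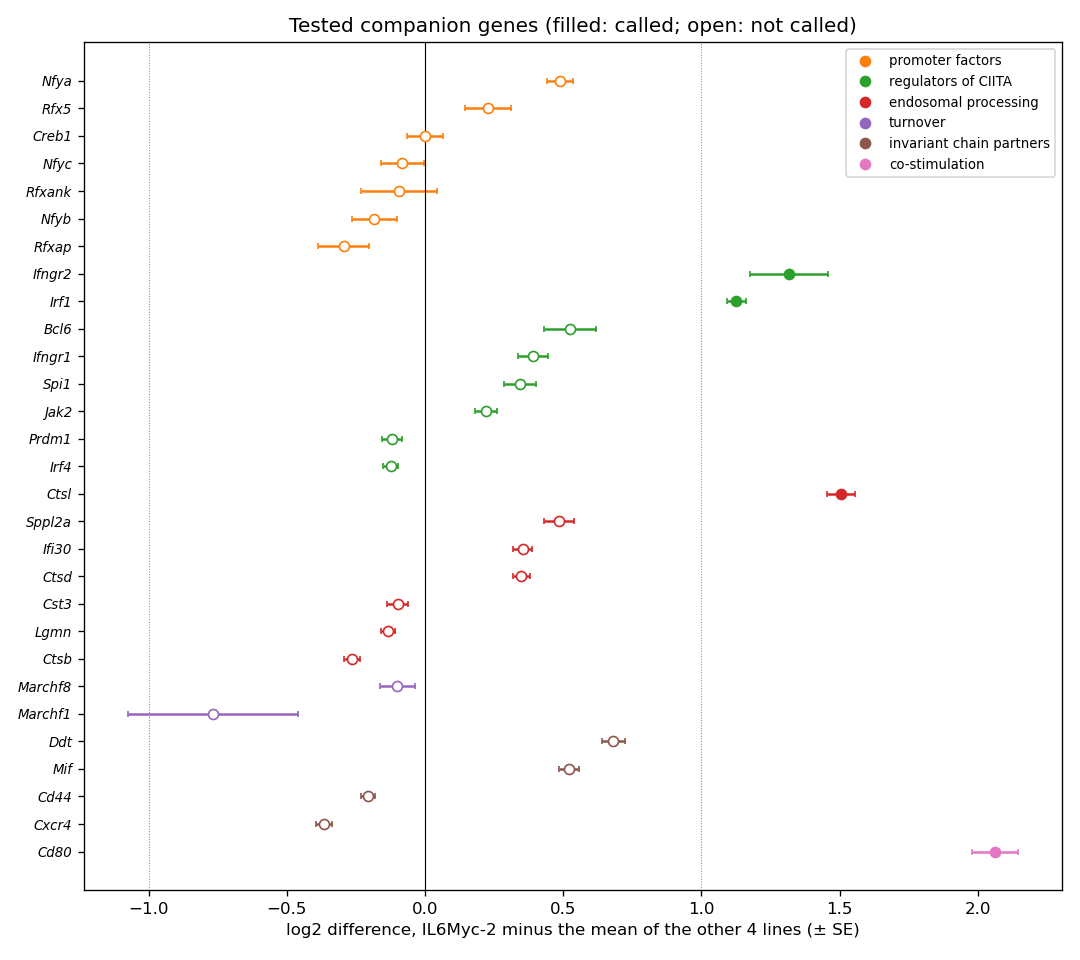
Log2 difference ± SE of the 29 tested companion genes in IL6Myc-2 against the mean of the other 4 lines, coloured by group. Filled points were called and dotted lines mark a difference of 1; Cd80, Ctsl, Ifngr2 and Irf1 lie past 1, and the promoter factors lie between -0.29 and 0.49.

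The genes that share the promoter pair of cores were compared across the lines. Of the 18 genes whose window held an X core followed by a Y core, 17 were in the table and 7 were tested, and 1 of the 7, H2-Eb1, was called higher in IL6Myc-2 (background 8.60%) and 0 lower (4.08%). H2-Eb1 passed the filter through the IL6Myc-2 libraries, so nothing is read from this count. H2-Eb2 also carries the pair. Cd74, H2-Ab1 and Ciita had no window, so whether they carry it was not examined. H2-DMb1 and H2-DMb2, whose windows hold it as well, were at 0.101 and 0.399 CPM in IL6Myc-2, within the range of the other lines or below it.

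Class II genes mark B cells and other presenting cells too, so markers of those cells are given beside these results. All 7 plasma cell markers were at 1 CPM or more in each line. Of these, Tnfrsf17, which encodes the surface receptor BCMA, was lower in IL6Myc-2 (-1.48 ± 0.07, edgeR adjusted p = 1.87e-11) and in IL6Myc-3 (-1.21 ± 0.07). It was at 8.81 CPM in IL6Myc-2, against 10.2 to 47.5 CPM in the rest. Sdc1 was at 284 CPM in IL6Myc-2, against 313 to 582 CPM (-0.50 ± 0.03, not called). Jchain, at 10591 CPM against 4978 to 8720 CPM (0.72 ± 0.03), and Mzb1, at 2719 CPM against 1248 to 2245 CPM (0.59 ± 0.03), were highest there but not called. Xbp1, Irf4 and Prdm1 differed by -0.16 to -0.12. The 7 markers summed to 16015 to 16607 CPM in the IL6Myc-2 libraries and 9969 to 14807.5 CPM in the others. The 8 dendritic cell markers summed to 14.3 to 16.2 CPM in the IL6Myc-2 libraries and 6.59 to 18.5 CPM in the other lines, with Itgax at 0 in IL6Myc-2 and 0 of the 2 tested markers called there by edgeR. Without the filter Ccr7 was higher in IL6Myc-2 (1.94 ± 0.36) and Siglech was lower (-2.17 ± 0.80, edgeR adjusted p = 0.0245). Siglech was at 0.0466 CPM in IL6Myc-2, against 0.0595 to 0.691 CPM in the other lines. The 8 macrophage and monocyte markers summed to 211 to 222 CPM in IL6Myc-2 and 65.0 to 194 CPM in the others, most of it Cd68 (201 CPM in IL6Myc-2, against 62.2 to 186 CPM, a difference of 1.01 ± 0.03). Itgam was higher in IL6Myc-2, at 11.6 CPM against 1.01 to 3.65 CPM (2.50 ± 0.12), while Lyz2, Cd14 and Fcgr1 were at 0 there. The 7 mature B cell markers summed to 412 to 432 CPM in IL6Myc-2 and 243 to 750 CPM in the other lines, most of it Cd79b and Ms4a1. Neither of these 2 was called in IL6Myc-2. Ms4a1 was at 92.7 CPM there, against 54.9 to 205 CPM (-0.46 ± 0.03), and Cd79b at 325 CPM, against 167 to 564 CPM (0.22 ± 0.04). Cd79a, a chain of the B cell receptor, was higher in IL6Myc-2, at 2.77 ± 0.60 CPM against 0.489 to 1.31 CPM (1.91 ± 0.20, edgeR adjusted p = 3.18e-07). Pax5, the defining B cell factor, was at 0.851 CPM in IL6Myc-2, against 0 to 0.188 CPM, and was higher there in the fit with no filter (4.52 ± 0.61, edgeR adjusted p = 1.46e-08). The 5 T cell markers summed to 54.0 to 61.4 CPM in IL6Myc-2 and 22.5 to 88.2 CPM elsewhere, most of it Cd2. Cd3d was higher in IL6Myc-2, at 7.62 CPM against 0.0950 to 3.42 CPM (3.32 ± 0.15, edgeR adjusted p = 4.42e-12), as was Cd4 (1.44 ± 0.29), whose highest mean was in IL6Myc-4, and Cd3e was at 0.0553 CPM against 0.00655 to 0.0445 CPM. The part of these marker differences in the class II levels was not tested. In bulk RNA more cells with a transcript and more transcript per cell cannot be told apart. The scaling factors of IL6Myc-2 (0.848 to 0.860) were below those of the other libraries (0.988 to 1.08), and scaling by DESeq2's size factors instead left every count of called members as it was.

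The profiles most like those of Cd74 and Ctss were looked up among all tested genes by the Euclidean distance of centred log2(CPM + 1) line means over the 5 lines. Nearest to Cd74 were Elf3 (0.9004), Prg2 (0.982), Wnt10a (1.12), Egln1 (1.16) and Map3k14 (1.23), all highest in IL6Myc-2. Elf3, an epithelial-type ETS factor, was at 61.6 CPM in IL6Myc-2, against 0.429 to 3.79 CPM in the rest. Nearest to Ctss were Ecm1 (0.440), Nhsl1 (0.518), Car14 (0.543), Inpp4b (0.548) and Vpreb3 (0.583), all highest in IL6Myc-5. Such likeness over 5 points describes these lines only.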

How the data were processed

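Expression was measured by RNA sequencing of 15 libraries, with the RNeasy mini and TruSeq Stranded Total RNA kits, per the labels' protocols. The submitters' processing notes name Trim Galore 0.4.0, DESeq2 and GRCm39; an aligner or quantifier is not given in the sources used here. Although the deposited table is named for TPM, its values were taken as estimated counts: the deposited columns sum to 19068543 to 41165599, and 30.8% to 54.3% of values above 0 and under 1.5 lie within 0.02 of 1. A further deposited column (1), the row mean within 6e-05, was not used.

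Estimated counts were rounded and tested with edgeR 4.0.16 (R 4.3.3) quasi-likelihood tests on all 15 libraries, cell line as single factor, TMM factors 0.848 to 1.08, genes with at least 1 CPM in 3 libraries (11773), Benjamini-Hochberg adjustment over all of them. Standard errors are the log2 difference over the root of F. Libraries of a line differed beyond sampling noise (chi-square per degree of freedom 4.33 to 18.4) and were kept as 3. Alternatives were limma 3.58.1 on log2(CPM + 1), DESeq2 1.42.0, other scaling and filters, a replicate block and leaving out each library. The test was tried on simulated counts. Transcript lengths came from GENCODE M21.

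Members, companion lists, markers and motifs were chosen with earlier results of these data known. Named genes are the members, called companion genes (up to 6 per list and comparison) and the 5 nearest profiles of Cd74 and Ctss; Jak1, H2-Eb2, H2-Ob and uncalled companions and markers outside the rule were named after their values were seen. Trac was not analysed here, and 1 companion gene and 1 marker are not reported here.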

Additional observations from a re-analysis of the deposited data

How the results depend on the processing

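Scaling by DESeq2's size factors in edgeR and a filter of 5 CPM in 3 libraries left every count of called members and companion genes as it was. Without a filter on low counts, 9 companion genes were called higher in IL6Myc-2 (4 with it), where 8.32% of 21140 genes were. Elsewhere 1 was called higher and 2 lower in IL6Myc-1, 3 higher in IL6Myc-3 and 2 higher and 3 lower in IL6Myc-4. In IL6Myc-5, 2 were called lower, and 11 were called among the 4 lines other than IL6Myc-2. More companion genes entered this fit than the 29 of the main test. The share of all genes is not given for these other counts, so nothing is read from the changes. The added genes, such as Jak1 and Pax5, were all under the level of the main filter. The members called higher in IL6Myc-5 were then 2 against the other 4 lines and 2 against the other 3, with H2-DMb2 added.

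H2-Eb1 between IL6Myc-3 and IL6Myc-4 was the least stable call: 1 member in place of 2 was called for this pair without the filter, with DESeq2, with limma and with the replicate block (H2-Eb1 -1.06, adjusted p = 0.0617), and 1 to 2 when single libraries were left out. With limma on log2(CPM + 1), which shrinks differences of low genes by its construction, 1 member was called for IL6Myc-1 against IL6Myc-3 and 1 against IL6Myc-4, 0 higher in IL6Myc-1 and 0 in IL6Myc-4 with IL6Myc-2 set aside, and 1 companion gene higher in IL6Myc-5. There H2-DMa in IL6Myc-2 fell short at 0.96, as did H2-Eb1 in IL6Myc-4 (-0.97) and IL6Myc-5 (-0.86), in IL6Myc-3 with IL6Myc-2 set aside (-0.41), in IL6Myc-1 minus IL6Myc-5 (0.46) and in IL6Myc-3 minus IL6Myc-5 (-0.28). Over all genes limma called 935 in IL6Myc-2, against 1493 in edgeR, 923 against 1472 in IL6Myc-1, 426 against 901 in IL6Myc-3, 668 against 1136 in IL6Myc-4 and 491 against 940 in IL6Myc-5.

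Leaving out 1 library moved H2-DMa in IL6Myc-4, with IL6Myc-2 set aside, between 0 and 1 calls (lost without IL6Myc-1 replicate 1, IL6Myc-3 replicate 1, IL6Myc-4 replicate 2 or IL6Myc-5 replicate 2). It moved H2-Eb1 in IL6Myc-5 between 0 and 1 calls (lost without IL6Myc-5 replicate 1) and companion genes between 0 and 1 lower in IL6Myc-1, 0 and 1 lower in IL6Myc-2 and 1 and 2 higher in IL6Myc-4. H2-DMa between IL6Myc-2 and IL6Myc-3 was at 0.99 without the filter, 0.91 with limma, 0.96 without IL6Myc-2 replicate 2 and 0.91 without IL6Myc-3 replicate 1, below the size threshold. Directions were checked for the member differences called in the main fit, H2-Ab1 left out, and none reversed in any of the 21 alternatives. Same-numbered libraries of different lines correlated at -0.084 to 0.111 (30 pairs, 1 over 0.1), so no strong effect shared by number was seen. Libraries with different numbers were not correlated for reference, so whether the numbers mark shared batches cannot be told. The replicate block left 1498 genes called in IL6Myc-2 against 1493 and changed no other call of the members. Where a cause is not given above, the cause was not tested.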
